A study of Mus musculus with 173 samples.

Results

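Il33 and the genes of both chains of its receptor, Il1rl1 and Il1rap, were followed through 11 tissues of a Huntington's disease mouse model. These 3 genes were taken from the 38561 genes of the count table. Il33 was selected on its lower RNA level in several brain regions of the model, so its brain difference is described here without a test; the receptor genes were added as its partners. The Q175 mice were heterozygous for a knock-in Huntingtin allele with a long CAG repeat and were compared with wild-type mice, all C57BL/6 and 6 months old. The 16 animals were 4 females and 4 males of each genotype; polyadenylated RNA was sequenced from each tissue. Each tissue had 8 Q175 libraries and 8 wild-type libraries, except gonadal adipose (7 wild type) and skin (6 wild type). The Q175 animals shared cages with their own line, while the wild types, which the design text calls littermates, lived with mice of another knock-in allele, Q20, so housing and genotype cannot be told apart.

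IL-33 is a cytokine of the IL-1 family that is stored in the nucleus and released when cells are damaged, which is why it is called an alarmin. It binds ST2, the product of Il1rl1, and the complex is completed by the accessory chain encoded by Il1rap, which also serves the receptors for IL-1 and IL-36. In the brain IL-33 is known from oligodendrocytes and astrocytes, and in the periphery from fibroblasts, endothelium and epithelia such as the epidermis. ST2 is best known from mast cells, innate lymphoid cells and regulatory T cells, and a soluble form of it acts as a decoy.

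The library totals ran from 28 to 48 M estimated counts. Levels are given as CPM (counts scaled to a common library total), and fold changes (± SE) come from edgeR's quasi-likelihood test with sex as a term and TMM scaling, with p-values adjusted over all genes tested in a tissue by the Benjamini-Hochberg method and a threshold of 0.05. Htt itself had a log2 difference below 0 in every tissue and passed in 4 of the 11. Abhd1, chosen as a label check after its values were seen, was above the whole wild-type range in 10 or all 11 tissues of 7 Q175 animals, but within that range in 10 of 11 tissues of 1 Q175 male. The libraries labelled Q175 from that male were kept, and the results that changed without them are named below. In 20 libraries the values fell with transcript length by more than the bound set (a slope under -0.1 log2 units per doubling). Scaling to library totals in place of TMM moved all fold changes by 0.15 in gonadal adipose and 0.11 in intestinal adipose on the log2 scale, and by under 0.1 elsewhere.

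The promoter windows of the 3 genes are shown as a description, and their part in the genotype differences was not tested. Each line holds the 250 bases before a RefSeq start site (build GRCm38.p6), 5′ to 3′, with matches to the searched motifs in capitals.
Il33 first start, chr19:29924863-29925112, plus strand: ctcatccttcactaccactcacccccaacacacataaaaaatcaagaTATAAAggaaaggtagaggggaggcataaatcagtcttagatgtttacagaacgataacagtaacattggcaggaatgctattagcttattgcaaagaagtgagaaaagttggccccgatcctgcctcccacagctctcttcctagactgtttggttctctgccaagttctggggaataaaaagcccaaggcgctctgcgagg
Il33 second start, chr19:29945540-29945789, plus strand: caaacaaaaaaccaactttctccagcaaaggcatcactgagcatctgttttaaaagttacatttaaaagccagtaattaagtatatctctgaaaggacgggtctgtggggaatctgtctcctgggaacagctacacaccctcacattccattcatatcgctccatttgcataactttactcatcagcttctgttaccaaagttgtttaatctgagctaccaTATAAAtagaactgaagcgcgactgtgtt
Il1rl1 first start, chr1:40429320-40429569, plus strand: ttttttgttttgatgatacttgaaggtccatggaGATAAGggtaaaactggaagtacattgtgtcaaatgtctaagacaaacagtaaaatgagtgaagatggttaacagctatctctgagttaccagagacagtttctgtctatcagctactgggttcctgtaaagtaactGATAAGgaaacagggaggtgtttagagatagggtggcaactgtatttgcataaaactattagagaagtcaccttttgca
Il1rl1 second start, chr1:40439379-40439628, plus strand: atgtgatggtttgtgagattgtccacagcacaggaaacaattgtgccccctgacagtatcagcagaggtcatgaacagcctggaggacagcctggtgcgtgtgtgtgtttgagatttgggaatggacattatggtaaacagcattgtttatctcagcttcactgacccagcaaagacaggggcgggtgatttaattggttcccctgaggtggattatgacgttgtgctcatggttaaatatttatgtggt
Il1rap, chr16:26581455-26581704, plus strand: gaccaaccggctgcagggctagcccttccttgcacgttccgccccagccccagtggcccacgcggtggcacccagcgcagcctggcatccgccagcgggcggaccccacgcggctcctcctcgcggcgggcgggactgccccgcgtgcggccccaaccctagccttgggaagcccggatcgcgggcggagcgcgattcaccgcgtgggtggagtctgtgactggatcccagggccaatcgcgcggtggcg
The motifs searched on both strands were TATAAA (in 12.4% of 32851 windows of this length), ACAAAG (SOX-type, 16.5%), GATAAG (bound by a zinc-finger family named for it, 6.55%), TGANTCA (AP-1-type, 6.75%) and an NF-kB-type core (0.356%). Both Il33 windows held TATAAA, which began 203 bases before the first start and 29 before the second. The first Il1rl1 window held GATAAG at 2 positions, and the second Il1rl1 window and the Il1rap window held none of the motifs. These are matches of letters, not binding sites. The data do not show which start was used.

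The level of Il33 in wild-type mice was highest in corpus callosum, a tract of myelinated axons, at 470 ± 121 CPM (SD, n = 8), with a lowest value of 293, a median of 468 and a highest of 623. Brainstem followed at 151 ± 11.8 and hypothalamus/thalamus at 111 ± 15.8. Intestinal adipose came next at 70.8 ± 34, above hippocampus at 54.2 ± 7.47, cerebellum at 45.1 ± 5.81 and skin at 43.5 ± 14.7 (n = 6). The other 4 tissues were far lower, with 7.82 ± 4.08 in gonadal adipose (n = 7), 5.41 ± 1.63 in heart, 4.52 ± 1.46 in gastrocnemius muscle and 3.57 ± 1.70 in brown adipose. Between neighbours in this order, limma voom with the animal as a random block passed 6 of 10 pairs. Down the order, 57%, 33.7%, 84%, 83.9%, 57.7%, 83.8%, 70.6%, 68.1%, 59.3% and 64.6% of all genes passed, so the count of Il33 pairs is read against a high background. Intestinal adipose and hippocampus (adjusted p = 0.249), cerebellum and skin (0.846), gonadal adipose and heart (0.126) and heart and gastrocnemius (0.839) were not separated. The voom difference of cerebellum against skin and of gonadal adipose against heart went against the order of the CPM means. With library totals in place of TMM, hippocampus against cerebellum (0.2) and gastrocnemius against brown adipose (0.258) were not separated either.

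Il1rl1, the ligand-binding chain, was highest outside the brain. Its level was highest in intestinal adipose at 9.61 ± 5.93 CPM and gonadal adipose at 7.63 ± 3.05, then skin at 5.66 ± 2.59, brown adipose at 2.24 ± 0.684, heart at 1.36 ± 0.0948 and gastrocnemius at 1.08 ± 0.316. In corpus callosum it was 0.518 ± 0.191 CPM, and in the other 4 brain regions the wild-type means lay between 0.207 and 0.287 CPM. Single libraries of those 4 regions held 2 to 18 counts of Il1rl1. Of its 10 neighbouring pairs only gonadal adipose against skin (adjusted p = 0.00808) and gastrocnemius against corpus callosum (1.26e-07) passed, where 70.6% and 80.8% of all genes did; over the other pairs down its order the shares were 62.7%, 73.4%, 59%, 59.3%, 56.6%, 33.7%, 61.3% and 57.7%. With library totals, gonadal adipose against skin (0.0683) was not separated and skin against brown adipose was (1.99e-05).

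Il1rap, the shared accessory chain, was also highest in corpus callosum. It stood at 160 ± 26.3 CPM in corpus callosum, 76.1 ± 6.22 in hippocampus, 55.9 ± 3.36 in brainstem, 50.5 ± 8.74 in hypothalamus/thalamus, 35.5 ± 8.77 in skin and 27.9 ± 1.54 in cerebellum. The remaining tissues ran from 9.14 ± 1.19 in intestinal adipose through heart at 4.83 ± 0.791, gonadal adipose at 3.93 ± 1.35 and brown adipose at 3.17 ± 0.706 to gastrocnemius at 2.55 ± 0.190. Of its 10 neighbouring pairs 7 passed, against 56.9%, 54.4%, 33.7%, 84.4%, 83.8%, 83.5%, 76.6%, 68.1%, 58% and 64.6% of all genes down the order. Brainstem and hypothalamus/thalamus (adjusted p = 0.0817), intestinal adipose and heart (0.207) and brown adipose and gastrocnemius (0.8) were not separated. The voom difference of 3 pairs among the tissues of low level went against the order of the CPM means. That of gonadal adipose against brown adipose did so past the threshold (-0.46, adjusted p = 0.0451). With library totals all 3 had the sign of the CPM means. Heart against gonadal adipose (0.0744) and gonadal against brown adipose (0.215) were then not separated, and intestinal adipose against heart was (7.27e-08). Over the 11 wild-type tissue means, Pearson's r on the log2(TMM CPM + 1) scale was 0.885 between Il33 and Il1rap, -0.591 between Il33 and Il1rl1 and -0.757 between both receptor genes, values that also carry the contrast of brain with other tissues.

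Per transcript length, on the authors' FPKM scale, the mean of Il33 was above those of its receptor genes in all 11 tissues of wild-type mice. In hippocampus, though, Il33 (21.5 ± 2.97 FPKM) and Il1rap (20 ± 1.7) lay within their spread. So did Il33 (1.405 ± 0.67) and Il1rap (0.7885 ± 0.182) in brown adipose. In corpus callosum Il33 was at 186 ± 48 FPKM, Il1rap at 37.1 ± 5.95 and Il1rl1 at 0.113 ± 0.0353. In gonadal adipose the levels were 3.08 ± 1.61 for Il33, 1.57 ± 0.643 for Il1rl1 and 0.981 ± 0.334 for Il1rap. Il33 and Il1rl1 lay within their spread there too.

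**Figure D1:**
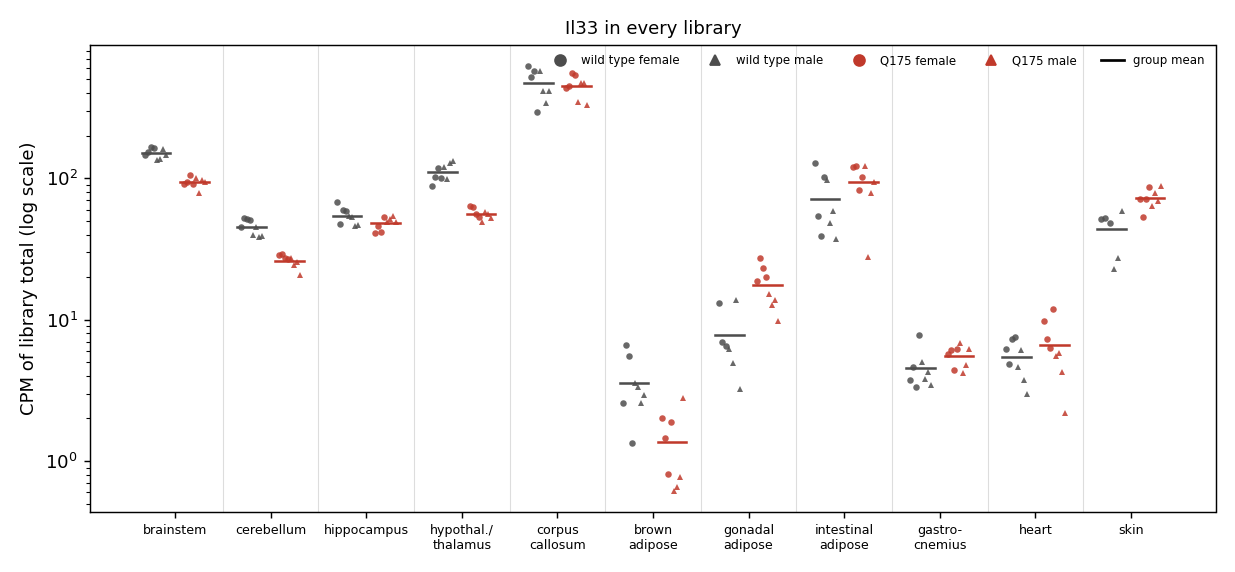
Il33 in each library as CPM of the library total (log axis), by tissue, with wild type in grey, Q175 in red, females as circles, males as triangles and a bar at each group mean. In brainstem, cerebellum and hypothalamus/thalamus all 8 Q175 libraries lie below all 8 wild-type libraries, while in gonadal adipose and skin the Q175 points lie mostly above. How many other genes separate in this way was not counted.

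In the brain of Q175 mice, Il33 was lower in brainstem, cerebellum and hypothalamus/thalamus, while the groups overlapped in hippocampus and corpus callosum. These are the values that chose the gene and are given as a description. In hypothalamus/thalamus the Q175 libraries ran from 49.2 (median 55.6) to 63.4 CPM and the wild-type libraries from 88.2 (median 110) to 132. All 8 Q175 libraries there were below all 8 wild-type libraries, and the log2 difference was -1.02 ± 0.09; 0.574% of all genes passed the test in this region and 0.466% as lower. In cerebellum the Q175 libraries ran from 20.6 (median 27.1) to 29 CPM against 38.3 (median 44.9) to 51.9, again without overlap, with a log2 difference of -0.79 ± 0.05, where 16.1% of all genes passed and 8.11% as lower. In brainstem the range was 78.7 (median 94.0) to 105 CPM against 135 (median 149) to 167, also without overlap. The log2 difference there was -0.70 ± 0.06, where 3.07% passed and 1% as lower. How many other genes separated the genotypes without overlap in a region was not counted. The lowest Q175 values of brainstem and cerebellum belonged to the male whose Abhd1 was in the wild-type range; without it the log2 differences were -0.67 and -0.76. The library codes came in 2 formats, and the log2 ratio of mean CPM within each was -0.58 and -0.72 in brainstem, -0.70 and -0.865 in cerebellum and -0.83 and -1.05 in hypothalamus/thalamus.

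Hippocampus had 3 of 8 Q175 libraries below all wild-type libraries, with 40.8 (median 49.2) to 54.2 CPM against 46 (median 53.4) to 67.6 and a log2 difference of -0.20 ± 0.08 (4.56% of genes passed, 2.6% as lower). Corpus callosum, the region richest in Il33, had 327 (median 460) to 553 CPM against 293 (median 468) to 623. No Q175 library there lay outside the wild-type range, and the log2 difference was -0.11 ± 0.16 (0.0544% passed).

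Markers of myelinating oligodendrocytes moved with Il33. In hypothalamus/thalamus 6 of 12 oligodendrocyte markers passed as lower, and their summed level was 5050 to 6720 CPM in Q175 against 6190 to 11400 in wild type. In cerebellum all 12 passed as lower (3310 to 4530 against 4760 to 5760 CPM), and in brainstem 6 of 12 did (14100 to 19000 against 17700 to 23600 CPM). None passed in hippocampus or corpus callosum, where the sums overlapped (3410 to 5900 against 3450 to 5540, and 39900 to 68600 against 32600 to 72100 CPM). No oligodendrocyte marker was at 0 in any of these groups. With the log2 of this sum as a term, the Il33 difference was -0.59 ± 0.08 in hypothalamus/thalamus, -0.57 ± 0.09 in cerebellum and -0.68 ± 0.08 in brainstem. Astrocyte markers also passed as lower in these 3 regions, 3, 4 and 2 of 10, with sums of 3510 to 4280 against 4340 to 5130 CPM in hypothalamus/thalamus, 4220 to 4400 against 4400 to 4610 in cerebellum and 5100 to 5910 against 5810 to 6370 in brainstem. With the astrocyte sum as a term the differences were -0.85 ± 0.17, -0.61 ± 0.10 and -0.65 ± 0.09. In cerebellum, markers of other cells passed too: neuronal markers as lower in 5 of 9 and as higher in 2 (5440 to 5660 against 5400 to 6140 CPM), endothelial markers as lower in 2 of 7 (81.0 to 112 against 96.3 to 112 CPM) and meningeal fibroblast markers as lower in 2 of 8 (86.0 to 105 against 93.0 to 131 CPM). None of these was at 0, and their part in the result was not tested. No neuronal, endothelial or meningeal fibroblast marker passed in brainstem or hypothalamus/thalamus with edgeR. In hippocampus the astrocyte sums did not overlap (4770 to 6170 against 6310 to 6680 CPM), although 1 of 10 markers passed as lower and 1 as higher. The Il33 difference there was -0.05 with that term. The lowest sums there, 4770 and 5070 CPM, were of Q175 females 3 and 4, the only hippocampus libraries whose values fell with transcript length past the bound. In hypothalamus/thalamus the lowest astrocyte sums were of Q175 females 2 and 3 and male 3. These and wild-type male 2 were past that bound. In bulk tissue, fewer cells of a type and less RNA per cell cannot be told apart.

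**Figure D2:**
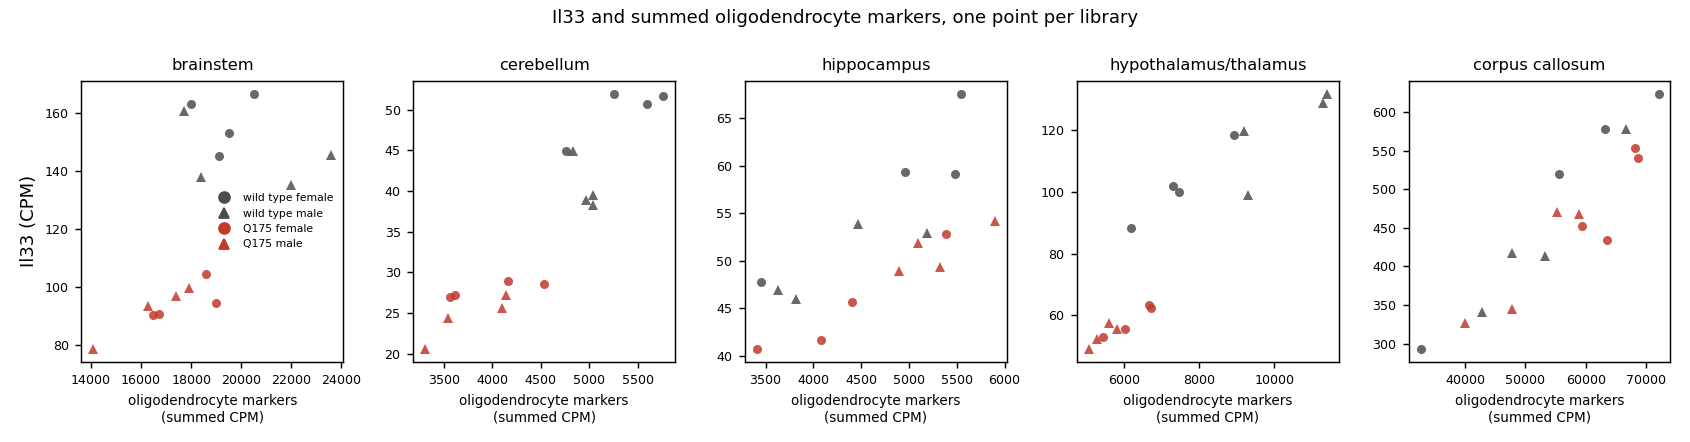
Il33 (CPM, linear axis) against the summed CPM of 12 oligodendrocyte markers in each library of 5 brain regions, wild type in grey and Q175 in red. In hippocampus and corpus callosum the genotypes overlap on both axes, while in cerebellum and hypothalamus/thalamus the Q175 libraries lie low on both.

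Genes whose RNA varied like Il33 within brain regions were sought in the 40 wild-type brain libraries, each centred on its region and sex. The 8 most alike of 10285 genes were Tspan2 (r = 0.945), Gpr37 (0.939), Arsg (0.938), Wipf1 (0.923), Ano4 (0.918), Edil3 (0.917), Aspa (0.911) and Pls1 (0.911). Aspa, which encodes aspartoacylase, is itself on the oligodendrocyte marker list. The 12 oligodendrocyte markers had r between 0.725 and 0.911, and the 10 astrocyte markers between -0.445 and 0.623. These points share dissection and library composition, and r differed between regions, for Tspan2 from 0.379 to 0.995. Over the 8 genes the lowest r in a single region ran from 0.0432 (Arsg) to 0.553 (Aspa). It was also low for Gpr37 (0.0748), Wipf1 (0.0995) and Edil3 (0.116). Across the 11 wild-type tissue means, the 5 genes most like Il33 of 14626 were Trim59 (0.974), Pls1, Evi2a, Pip4k2a and Galnt6 (0.957). For Il1rl1 they were Tlcd2 (0.996), Casp8, Gprc5a, Ifngr1 and Clec12a (0.987), and for Il1rap Ngef (0.969), Map7, Kcns1, Smco3 and Wdr54 (0.96).

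Neither receptor gene passed the test in any brain region. Il1rap had its largest brain difference in hypothalamus/thalamus, where Q175 libraries ran from 30.2 (median 41.6) to 52.6 CPM and wild-type libraries from 38.7 (median 49.97) to 64.8. The groups overlapped, and the log2 difference was -0.34 ± 0.11 (adjusted p = 0.195); with the oligodendrocyte term it was -0.03 ± 0.16. The other log2 differences of Il1rap were -0.13 ± 0.06 for hippocampus (0.234), -0.07 ± 0.06 for brainstem (0.56), -0.08 ± 0.04 for cerebellum (0.162) and 0.03 ± 0.14 for corpus callosum (0.916). Il1rl1 counts were too low to enter the test in 4 regions. In corpus callosum Il1rl1 differed by 0.33 ± 0.32 (adjusted p = 0.592), and -0.05 without Q175 male 1, whose 1.99 CPM was far above the other Q175 libraries. That library also had the highest sum of several marker lists in corpus callosum. Its mast cell markers summed to 107 CPM against at most 50.6 in wild type, and its fibroblast markers to 636 against at most 237. Endothelial markers summed to 288 CPM against at most 136, and adipocyte markers to 251 against at most 58.6. Its values also fell with transcript length past the bound. The part of these in the result was not tested.

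**Figure D3:**
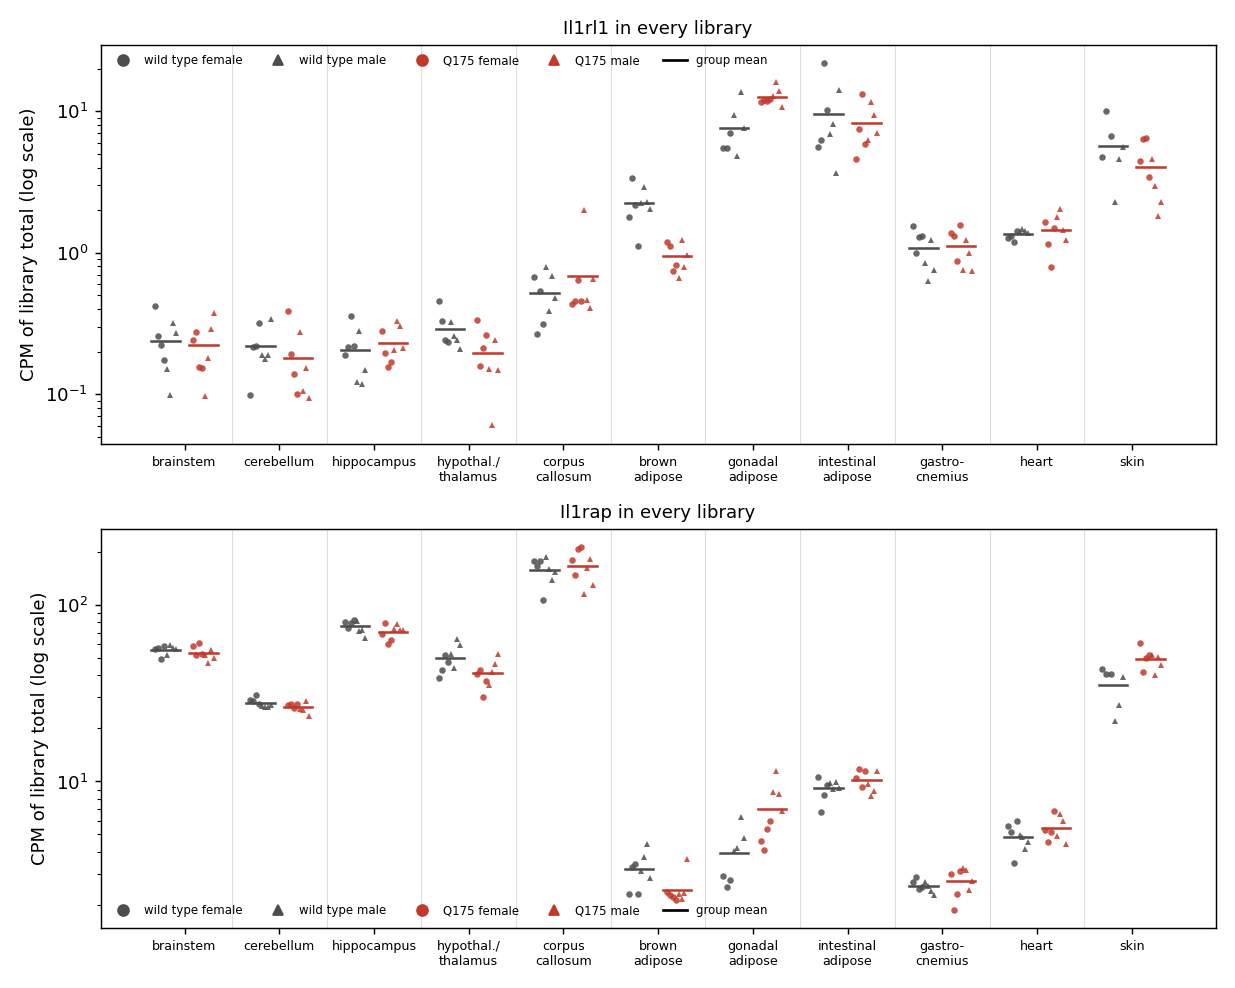
Il1rl1 (upper panel) and Il1rap (lower panel) in each library as CPM of the library total (log axes), with the colours and symbols of the Il33 plot and bars at group means. Il1rl1 is highest in white adipose tissue and lowest in brain, and Il1rap is highest in corpus callosum.

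In brown adipose tissue, which burns lipid to make heat, the ligand and its binding chain were both lower in Q175 mice. Il33 ran from 0.619 (median 1.13) to 2.78 CPM in Q175 and from 1.35 (median 3.14) to 6.57 in wild type, with 4 of 8 Q175 libraries below all wild-type ones. The log2 difference was -1.31 ± 0.35 (adjusted p = 0.0389), where 5.41% of all genes passed and 4.85% as lower. Il1rl1 ran from 0.666 (median 0.893) to 1.24 CPM against 1.11 (median 2.23) to 3.39. Of the 8 Q175 libraries 5 were below the wild-type range, and the log2 difference was -1.17 ± 0.21 (adjusted p = 0.0114). Il1rap ran from 2.12 (median 2.28) to 3.61 CPM against 2.30 (median 3.19) to 4.39, and its log2 difference of -0.31 ± 0.13 did not pass (0.221).

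Other cells' markers moved in brown adipose as well. Of 9 fibroblast markers 7 passed as lower, with sums of 367 to 1050 CPM in Q175 against 537 to 1460 in wild type, and with that sum as a term the Il33 difference was 0.05 and the Il1rl1 difference -0.67 (adjusted p = 0.999 and 0.841). Mast cell markers, of a cell known for ST2, passed as lower in 4 of the 6 tested (18.3 to 37.2 against 27.8 to 83.9 CPM), and none was at 0. Macrophage markers passed as lower in 3 of 11 (51.4 to 238 against 90.3 to 220 CPM), and none was at 0. Skeletal muscle markers passed as lower in 3 of 8 and summed to 3.61 to 731 CPM against 19.7 to 15900; with that term Il33 differed by -1.79 (0.114) and Il1rl1 by -1.20 (0.0901). The Il33 call was lost without any 1 of 10 of the 16 libraries, among them the Q175 male with Abhd1 in the wild-type range (-1.23 without it, adjusted p = 0.0811), and the Il1rl1 call was kept in each case. With the first part of the library code (before the point) as a term, Il33 differed by -1.08 (adjusted p = 0.202). The labels do not define that part.

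In gonadal white adipose tissue all 3 members were higher in Q175 mice. Il33 ran from 9.86 (median 16.95) to 27.2 CPM against 3.23 (median 6.47) to 13.8 in wild type, with 5 of 8 Q175 libraries above the wild-type range, and a log2 difference of 0.93 ± 0.27 (adjusted p = 0.0182). In this tissue 32.1% of all genes passed, 15.4% as higher, so each call is read against a large background. Il1rl1 ran from 10.6 (median 12.02) to 15.9 CPM against 4.81 (median 6.97) to 13.6. The groups overlapped through wild-type male 3, the wild-type library highest in Il1rl1, and 2 Q175 libraries were above the whole wild-type range; Il1rl1 had a log2 difference of 0.61 ± 0.18 (adjusted p = 0.0178). Il1rap ran from 4.07 (median 6.41) to 11.5 CPM against 2.53 (median 4.004) to 6.32, with a log2 difference of 0.72 ± 0.13 (0.00186). The 4 Q175 females had 4.07 to 5.99 CPM of Il1rap against 2.53 to 2.91 in 3 wild-type females. The 4 Q175 males had 6.82 to 11.5 CPM against 4.004 to 6.32 in 4 wild-type males. How many other genes separated the genotypes within each sex was not counted, and 32.1% of all genes passed in this tissue.

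All 9 fibroblast markers passed as higher in gonadal adipose, with sums of 3810 to 5500 CPM in Q175 against 1790 to 4230. So did 8 of 11 macrophage markers (682 to 836 against 243 to 777 CPM) and 5 of the 8 mast cell markers tested (70.9 to 118 against 40.9 to 80). No marker of these lists was at 0. Endothelial markers passed as higher in 3 of 7 and as lower in 1 (839 to 1260 against 669 to 983 CPM). Adipocyte markers passed as higher in 1 of 7 and as lower in 2 (15300 to 26500 against 18600 to 25000 CPM). The part of endothelial and adipocyte markers in the result was not tested. Epididymis markers summed to between 14.6 and 126 CPM in the 4 Q175 males and to at most 0.543 CPM in wild-type libraries. That sum was at most 1.15 CPM in females, and its part in the result was not tested. The 4 Q175 females had 18.7 to 27.2 CPM of Il33 against 6.47 to 13.2 in 3 wild-type females. Their Il1rl1 was 11.6 to 12.1 CPM against 5.49 to 6.97. How many other genes separated the females in this way was not counted. In wild-type females 2 and 3 values fell with transcript length past the bound. With the fibroblast sum as a term the differences were 0.06 for Il33 (adjusted p = 0.918), 0.17 for Il1rl1 (0.724) and 0.51 for Il1rap (0.232). Without the 5 libraries whose values fell with transcript length, 4 of them wild type, the differences were 0.51 (0.356), 0.41 (0.247) and 0.55 (0.0997). With the first part of the library code as a term they were 0.44 (0.456), 0.05 (0.889) and 0.48 (0.114). Some first parts occurred in a single genotype in this tissue, so that term and genotype could not be fully told apart.

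In skin the ligand and the accessory chain were higher in Q175 mice, while the binding chain did not pass. Il33, which the epidermis makes, ran from 53.2 (median 71.4) to 87.9 CPM against 22.7 (median 49.9) to 58.2, and 7 of 8 Q175 libraries were above the wild-type range. The log2 difference was 0.74 ± 0.19 (adjusted p = 0.0397), where 6.53% of all genes passed and 2.5% as higher. Il1rap ran from 40.1 (median 50.7) to 61.0 CPM against 22.04 (median 39.9) to 43.4, with 6 of 8 above the range and a log2 difference of 0.47 ± 0.13 (0.0428). Il1rl1 ran from 1.81 (median 3.92) to 6.45 CPM against 2.27 (median 5.17) to 10.04, with a log2 difference of -0.51 ± 0.26 (0.215).

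Keratinocyte markers passed as higher in 5 of 8, and their sums were 34200 to 41700 CPM in Q175 against 13700 to 28700 in wild type, without overlap and with no marker at 0. Adipocyte markers passed as lower in 3 of 7 (615 to 1520 against 1120 to 2580 CPM) and mast cell markers in 1 of 9 (33.3 to 240 against 123 to 319 CPM). Endothelial markers, of another cell known for IL-33, passed as lower in 3 of 7, with a median log2 difference of -0.85 and sums of 51.5 to 99.2 against 57.1 to 190 CPM. No endothelial marker was at 0, and their part in the result was not tested. With the keratinocyte sum as a term the differences were -0.06 for Il33 (adjusted p = 0.819) and -0.06 for Il1rap (0.752). In 3 of the 6 wild-type skin libraries, and in 0 of the 8 Q175 ones, values fell with transcript length past the bound; they include the 2 with the lowest Il33, 22.7 and 27.5 CPM. Without these 3 the differences were 0.41 for Il33 (adjusted p = 0.0831) and 0.28 for Il1rap (0.136). The Il33 call was lost without any 1 of 10 of the 14 libraries and the Il1rap call without any 1 of 11. Without the Q175 male with Abhd1 in the wild-type range the differences were 0.68 (0.072) for Il33 and 0.47 (0.0753) for Il1rap. With the first part of the library code as a term they were 0.77 (0.0547) and 0.48 (0.0741).

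**Figure D4:**
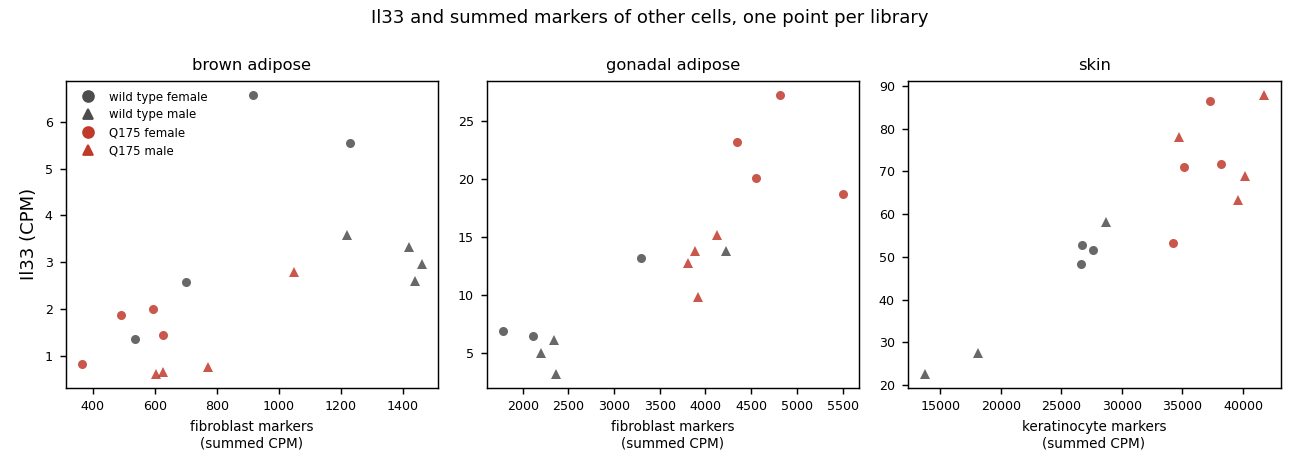
Il33 (CPM, linear axis) against summed markers of another cell type (CPM) in each library, with fibroblast markers for brown and gonadal adipose and keratinocyte markers for skin, wild type in grey and Q175 in red. Q175 libraries lie mostly low on both axes in brown adipose and high on both in gonadal adipose and skin.

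No member passed in intestinal adipose, gastrocnemius or heart, where 0%, 0.0213% and 0.0549% of all genes passed. On simulated data of intestinal adipose the test recovered 17 of 100 genes changed 1.5-fold and 52 of 100 changed 2-fold. In intestinal adipose Il33 ran from 27.7 (median 98.1) to 122 CPM in Q175 against 36.9 (median 56.7) to 129, a log2 difference of 0.30 ± 0.25 (adjusted p = 0.672). Il33 differed by 0.24 ± 0.15 in gastrocnemius (0.867) and by 0.21 ± 0.20 in heart (0.863). Il1rl1 and Il1rap differed by between -0.35 and 0.15 on the log2 scale in these 3 tissues, with adjusted p from 0.703 to 0.993, and none of the 9 values had an unadjusted p under 0.05.

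**Figure D5:**
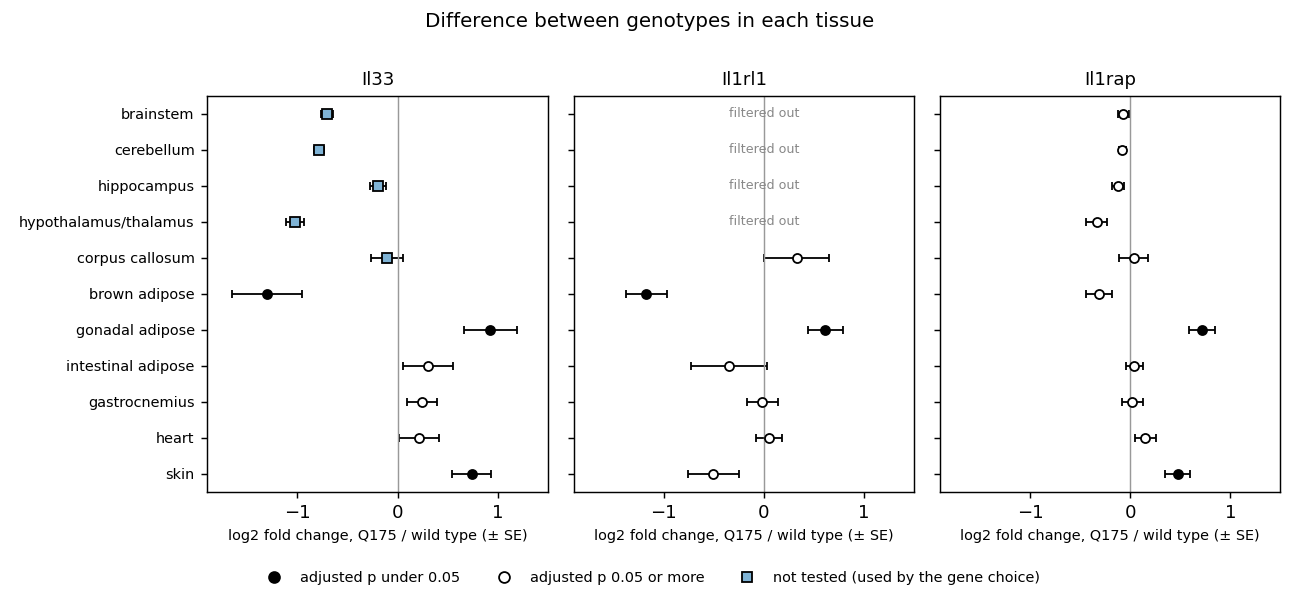
Log2 fold change of Q175 over wild type (horizontal axis, ± SE) for each member in each of 11 tissues. Filled circles passed at an adjusted p under 0.05, open circles did not, and squares mark the brain values of Il33, which were not tested. The 3 members lie on the same side of 0 in brown adipose, in gonadal adipose and in heart, where no member passed.

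Whether the genotype difference varied between tissues was tested in one limma voom model over all libraries. For Il1rap it did (adjusted p = 2.15e-06, where 34.5% of all genes passed), and for Il1rl1 the test did not pass (0.266). Among genes with a mean of at least 5 counts in every tissue, of which 42.6% passed, the values were 1.84e-06 and 0.234. Il33 was not put to this test, since its brain values chose it.

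The genotype difference was also compared between the sexes. No sex by genotype term of a member passed in any tissue with edgeR or with DESeq2, where edgeR passed 0.231% of all genes in gonadal adipose and 0% in the other 10 tissues. Of 29 terms 2 had an unadjusted p under 0.05 with either tool. Both were of Il33 in brain, with an edgeR p of 0.0152 in hippocampus and 0.0236 in hypothalamus/thalamus. The brain values of Il33 chose the gene, so these 2 terms are given as a description. Between wild-type males and females no member passed with edgeR, and 6 of 29 values had an unadjusted p under 0.05. The shares of all genes passing were 5.83% in gonadal adipose, 4.96% in gastrocnemius and 0.984% in heart; elsewhere they were 0.101% (brown adipose), 0.0298% (intestinal adipose), 0.0665% (skin), 0.0989% (cerebellum), 0.0715% (hypothalamus/thalamus), 0.0613% (hippocampus) and 0.0361% (brainstem and corpus callosum). With DESeq2, which passed 0.389% of all genes in cerebellum and 12.3% in gonadal adipose, 2 member values passed: Il33 was lower in male cerebellum (log2 difference -0.30 ± 0.07, adjusted p = 0.00752) and Il1rap higher in male gonadal adipose (0.73 ± 0.24, 0.023).

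Genes around IL-33 in its pathway passed most often in gonadal adipose, the tissue with the highest share of all genes passing. Over 6 lists 21 of 55 tested genes passed there (38.2%, beside 32.1% of all genes), 16 of them higher (29.1%, beside 15.4%). Of 9 other IL-1 family ligands 3 entered the test there and 1 passed, Il1rn, the IL-1 receptor antagonist. Of 8 other receptors 6 entered and 3 rose: Il1rl2, the IL-36 receptor chain (6.13 against 2.43 CPM, log2 difference 1.19 ± 0.24), Il1r1 and Sigirr. Of 23 signalling genes 4 rose and 3 fell, with a list median of -0.07 beside 0.02 for all genes tested; the 3 that fell were Tab3, Chuk and Rela, and Rela (-0.12) has the opposite sign with library totals, given the shift of 0.15. Of 18 type 2 response genes 9 entered and 5 rose, with a median of 0.69; Il13ra1, a receptor chain for IL-13, went from 9.48 to 20.6 CPM (0.96 ± 0.12, adjusted p = 0.000307). Nfkb1, an NF-kB subunit, rose by 0.31 ± 0.07 (0.00523). Of 10 proteases listed for cutting IL-33 2 rose and 1 fell, and of 6 other alarmins 1 rose (Tslp) and 1 fell (S100a8).

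In brown adipose 4 of the 50 genes of these lists tested passed, all lower (8%, beside 5.41% of all genes and 4.85% as lower). Retnla, a product of alternatively activated macrophages, whose markers also passed as lower in part, fell from 31.2 to 8.46 CPM (log2 difference -1.88 ± 0.30, adjusted p = 0.0114). Cma1, the mast cell chymase, fell from 7.92 to 2.26 CPM (-1.76 ± 0.32, 0.0114), and it is also on the mast cell list. Ccl24, an eosinophil chemokine, fell from 1.49 to 0.546 CPM (-1.32 ± 0.29, 0.0155), and the fourth was Il1rl2. In skin 4 of 62 listed genes passed, all higher (6.45%, beside 6.53% of all genes and 2.5% as higher). There 3 of 9 other ligand genes rose: Il36g, an epidermal IL-36 cytokine, from 35.6 to 58.8 CPM (0.71 ± 0.14, 0.0205), Il1rn from 90.3 to 129 CPM (0.49 ± 0.11, 0.0273) and Il36rn. The protease Capn1 rose there too (201 to 276 CPM, 0.45 ± 0.09, 0.0211).

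In cerebellum 5 of 38 listed genes passed (13.2%, beside 16.1% of all genes), and in brainstem 1 of 43 (2.33%, beside 3.07%). In cerebellum Chuk, a kinase that activates NF-kB (67.4 to 80.2 CPM, log2 difference 0.25 ± 0.04, adjusted p = 0.00012), Capn1 (0.18 ± 0.03), Map3k7 (0.13 ± 0.03) and Il1r1 rose and Nfkb2 fell. In brainstem Traf6, an adaptor downstream of the receptor, rose from 29.9 to 35.7 CPM (0.24 ± 0.06, 0.0367). In hippocampus, hypothalamus/thalamus and corpus callosum, and in intestinal adipose, gastrocnemius and heart, no gene of the 6 lists passed with edgeR.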

How the data were processed

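The members and gene lists were chosen with earlier results of these data known. Polyadenylated RNA was sequenced. Per the submitters' processing notes the tool was CASAVA 1.8.2; the aligner, counter, strand setting and genome build were not given in the sources used here. The authors deposited expected counts per Ensembl gene and FPKM values scaled to length and library total. Of the 38561 genes, 36639 were given a symbol. Counts were rounded and tested per tissue with edgeR 4.0.16 (filterByExpr, TMM, robust quasi-likelihood, sex as a term) in R 4.3.3, with Benjamini-Hochberg adjustment. DESeq2 1.42.0 and limma 3.58.1 were alternatives, and limma voom compared tissues with the animal, read from the library name, as a random block. CPM used plain library totals of 28 to 48 M; depth limits Il1rl1 in brain.

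Named pathway genes were those called, up to the 3 of smallest p per tissue, others being named after their values were seen. Likeness used genes with a mean of at least 5 CPM. Tests were tried on simulated data. In the edgeR runs 200 genes were changed in each tissue, and 5 to 14 unchanged genes were called. Of 100 genes changed 1.5-fold, 17 (intestinal adipose) to 85 (cerebellum) were recovered. Of 100 changed 2-fold, 52 (intestinal adipose) to 95 (cerebellum and heart) were. In skin 40 and 67 were recovered. The voom test over tissues called 46 of the unchanged genes beside 127 of 200 changed ones. With a mean of at least 5 counts in every tissue, a limit chosen after seeing this, it called 6 beside 130 of 183. The test over all genes was kept as designed and the limited one was added as an alternative. Marker sums for fibroblasts, keratinocytes and muscle as terms were also chosen after seeing the data.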

Additional observations from a re-analysis of the deposited data

Results flagged for a closer look

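In 4 of 66 groups of libraries 1 value stood far from the others of its group; chance alone gives about 1 in 20. Il33 in intestinal adipose of Q175 male 2 was 27.7 CPM, where the next library had 78.4. Il33 in gastrocnemius of wild-type female 4 was 7.84 CPM, where the next had 5 CPM. Il1rl1 in corpus callosum of Q175 male 1 was 1.99 CPM, where the next had 0.652. That library's summed mast cell markers were 107 CPM against at most 50.6 in wild type, and its fibroblast markers 636 against at most 237. Its endothelial and adipocyte sums were also above the wild-type range, and the part of these in the value was not tested. Il1rap in brown adipose of Q175 male 4 was 3.61 CPM, where the next had 2.37.

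The genotype difference of Il1rap varied between tissues (limma voom, adjusted p = 2.15e-06, where 34.5% of all genes passed). Among genes with enough counts in every tissue, of which 42.6% passed, it was 1.84e-06. The edgeR log2 differences of single tissues ran from -0.34 in hypothalamus/thalamus, which did not pass (adjusted p = 0.195), to 0.72 in gonadal adipose (0.00186). Some of the settings below did not keep the gonadal adipose call.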

How the results depend on the processing

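Leaving out 1 library at a time kept the gonadal adipose calls and the brown adipose Il1rl1 call. Without 1 library Il33 ranged from -1.62 to -1.14 in brown adipose (adjusted p 0.0166 to 0.0924; kept only without Q175 female 1 or male 4 or wild-type female 1, female 4, male 1 or male 3) and from 0.60 to 0.90 in skin (0.0188 to 0.0957; kept only without Q175 female 2 or wild-type female 1, female 2 or male 3). Il1rap ranged in skin from 0.38 to 0.55 (0.025 to 0.105; kept only without Q175 female 2 or wild-type female 1 or male 3), in cerebellum from -0.105 to -0.0622 (passing without Q175 male 3, 0.0434), in corpus callosum from -0.0586 to 0.1001 and in gastrocnemius from -0.0094 to 0.086. Il1rl1 ranged in corpus callosum from -0.0534 to 0.467, in gastrocnemius from -0.0717 to 0.0832 and in heart from -0.0138 to 0.137.

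Replicate numbers did not pair the animals: same-numbered libraries deviated together, with a correlation over 0.1, in 34 of 85 pairs (-0.61 to 0.753) and in no tissue in every pair. With the replicate block, Il33 was -1.36 in brown adipose (0.116) and 0.69 in skin (0.173), Il1rap was 0.48 in skin (0.166), and other calls were kept.

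With the first part of the library code as a term, which the labels do not define, some calls did not pass. Il33 was -1.08 in brown adipose (0.202), 0.44 in gonadal adipose (0.456) and 0.77 in skin (0.0547). Il1rl1 was 0.047 in gonadal adipose (0.889). Il1rap was 0.48 in gonadal adipose (0.114) and 0.48 in skin (0.0741). The sign turned for Il1rap in corpus callosum (-0.0199) and intestinal adipose (-0.0052). Removing the length trend gave Il1rl1 0.25 in gonadal adipose (0.246) and Il1rap -0.0373 in intestinal adipose and -0.0467 in gastrocnemius. Leaving out libraries with a length trend gave 0.02 for Il33 in corpus callosum (-0.11 with all libraries, -0.20 to -0.02 without 1 library) and 0.51, 0.41 and 0.55 for Il33, Il1rl1 and Il1rap in gonadal adipose and 0.41 (0.0831) and 0.28 (0.136) for Il33 and Il1rap in skin. No low-count filter gave Il33 -1.27 in brown adipose (0.0611), and no sex term gave Il1rap 0.46 in skin (0.0608).

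Marker terms gave Il33 -0.57 (oligodendrocyte) and -0.61 (astrocyte) in cerebellum and -0.59 and -0.85 in hypothalamus/thalamus. For Il1rap they gave 0.0097 and 0.0554 in cerebellum and -0.05004 and -0.0174 in corpus callosum, and the astrocyte term 0.0526 in brainstem and 0.0629 in hippocampus. The fibroblast term gave 0.0477, -0.67 and 0.0583 for Il33, Il1rl1 and Il1rap in brown adipose, 0.0607, 0.17 and 0.51 in gonadal adipose, and 0.79 (0.0538) and 0.45 (0.0794) for Il33 and Il1rap in skin. The keratinocyte term gave -0.0642 and -0.0619 in skin, and the muscle term -1.79 and -1.20 for Il33 and Il1rl1 in brown adipose. DESeq2 called 2 sex differences in place of 0. At an unadjusted p under 0.05, the exact sign-flip permutation test separated 4 neighbouring tissue pairs each for Il33, Il1rl1 and Il1rap. The voom calls, at an adjusted p, were 6, 2 and 7. Skin and gonadal adipose shared 5 animals, so the lowest permutation p there was 0.0625 and that pair could not pass. Scaling to library totals separated 4, 2 and 6 pairs. The cause was not tested for any of these. The name format could be fitted in brainstem, cerebellum and hypothalamus/thalamus, where each format held at least 2 libraries of each genotype.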
